A study of Mus musculus with 30 samples.

Results

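The AP-1 family transcription factors are described here through 10 genes, Fos, Fosb, Fosl2, Jun, Junb, Jund, Atf3, Jdp2, Maff and Mafk, in macrophages given IL-4, prostaglandin E2 (PGE2) or valinomycin and in macrophages carrying a hairpin against Etv1. The genes were chosen by name, as the entries of the count tables whose Ensembl ID maps to those symbols, and they are 10 of the 43629 gene IDs in the tables. All 10 were found, and all 10 passed the filter on low counts in both experiments, where 12824 and 12382 genes were tested. The study sequenced poly(A) RNA of bone marrow derived macrophages from C57BL/6 mice, grown to day 7 with 20 ng/mL CSF-1, in 30 libraries that form 10 groups of 3.

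The wild type experiment held macrophages with IL-4 (20 ng/mL) plus valinomycin (10 nM), with IL-4 plus PGE2 (10 µM), with IL-4 alone, and with no stimulus. IL-4 is a type 2 cytokine that induces the alternative state of macrophages. PGE2 signals largely by raising cyclic AMP. Valinomycin carries potassium across membranes and so lowers the membrane potential of mitochondria. The shRNA experiment held macrophages with Etv1 shRNA, delivered by lentivirus, or control shRNA, each with IL-4 plus PGE2, IL-4 alone, or no stimulus. Etv1 is a transcription factor of the ETS family. CSF-1 was present in every group, including the unstimulated ones. The labels give neither the time of stimulation nor the number or sequence of hairpins. Nothing in them ties the 3 libraries of a group to different mice or dishes, so the p-values here reflect only the spread between those libraries, which may be technical.

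AP-1 is a dimer of basic leucine zipper (bZIP) proteins that binds short palindromic DNA sites. Fos-type proteins pair with Jun-type proteins, Atf3 and Jdp2 pair with Jun-type proteins and often act as repressors, and the small Maf proteins Maff and Mafk lack an activation domain and pair with other bZIP proteins such as Nfe2l2 and Bach1. Many of these genes are immediate early genes, switched on by kinase cascades or by cyclic AMP soon after a signal, and in macrophages they take part in the responses to growth factors, microbial products and stress.

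Wild type libraries had 10514496 to 13414293 reads assigned to genes, and shRNA libraries 6924973 to 30473040. Levels are given as CPM, the read count of a gene relative to the scaled size of its library, and are not compared between experiments. All 8 macrophage markers (Csf1r, Adgre1, Cd68, Mertk, Fcgr1, Lyz2, Itgam and Mrc1) had reads in every group. The 8 neutrophil markers summed to 175 to 283 CPM in wild type libraries, mostly S100a8, S100a9 and Ngp, with Ly6g at 0.312 CPM or less, and to 0 to 2.46 CPM in shRNA libraries. Summed dendritic cell, lymphocyte, mast cell, stromal and erythroid markers were each at 5.41 CPM or less in every library, and Fcer1a, a mast cell marker, had no read in any.

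The sequence before the start sites is shown because PGE2 acts through cyclic AMP, whose response element is the palindrome TGACGTCA. RefSeq windows on GRCm38.p6, from 250 bases before to 50 bases after a start site, were at hand for all 10 members, 14 windows in all. The core TGACG of the element, on either strand, was in 8 of 14 windows and in 20.8% of 32851 mouse windows of the same length. The 8 windows belong to 7 of 10 members, but Maff and Jdp2 have 3 windows each. By the first window of each member it was 5 of 10. The full TGACGTCA, which contains the core on both strands, was in 1 of 14 and in 1.79% of all windows. The AP-1 site TGANTCA, searched on both strands, was in none of the 14 and in 7.81% of all, and the serum response element was in none and in 1.63%. Sites outside these windows, and variants of these motifs, were not searched, so a member without a match may still have such a site. Given first are the 250 bases before the start of Fos (chr12:85473640-85473889, plus strand, outside annotated exons), Fosb (chr7:19310046-19310295, minus strand, of which 6 bases are exonic in GENCODE M21), Maff (chr15:79347270-79347519, plus strand, the middle of its 3 windows, within the gene and outside its exons) and Atf3 (chr1:191183334-191183583, minus strand, within the longer Atf3 gene model with 7 exonic bases). Each is written along the gene, with TGACG, its reverse complement CGTCA or the full TGACGTCA in capitals.
Fos: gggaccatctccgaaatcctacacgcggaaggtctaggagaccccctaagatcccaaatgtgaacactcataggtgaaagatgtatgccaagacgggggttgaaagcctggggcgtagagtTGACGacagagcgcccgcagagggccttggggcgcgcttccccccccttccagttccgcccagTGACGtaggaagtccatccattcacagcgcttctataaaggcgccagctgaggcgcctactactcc
Fosb: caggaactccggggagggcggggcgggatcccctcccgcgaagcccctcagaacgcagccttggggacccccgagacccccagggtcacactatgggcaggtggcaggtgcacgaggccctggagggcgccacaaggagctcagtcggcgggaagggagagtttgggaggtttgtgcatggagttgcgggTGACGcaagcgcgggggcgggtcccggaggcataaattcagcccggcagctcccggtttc
Maff: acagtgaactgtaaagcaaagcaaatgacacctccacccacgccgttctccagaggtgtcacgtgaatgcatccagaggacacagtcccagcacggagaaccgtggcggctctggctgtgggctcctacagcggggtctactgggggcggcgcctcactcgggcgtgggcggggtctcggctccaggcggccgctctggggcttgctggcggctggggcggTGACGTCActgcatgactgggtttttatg
Atf3: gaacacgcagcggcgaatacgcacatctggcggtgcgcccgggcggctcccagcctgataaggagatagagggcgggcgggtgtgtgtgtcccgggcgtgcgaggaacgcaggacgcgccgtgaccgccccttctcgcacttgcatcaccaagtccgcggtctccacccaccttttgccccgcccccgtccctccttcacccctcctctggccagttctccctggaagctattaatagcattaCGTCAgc

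Fos carried the core at -129 to -125 and at -66 to -62 from the start, Fosb at -60 to -56 and Atf3 at -7 to -3. Maff carried the full palindrome at -29 to -22. The Jdp2 core was in the middle of its 3 windows, within the gene. Of the 250 bases before the start there, 62 are exonic in Jdp2 and 26 are exonic in another gene. For Jdp2 (chr12:85599292-85599316, plus strand), Junb (chr8:84978840-84978864, minus strand) and Mafk (chr5:139791485-139791509, plus strand) 25 bases around the core are enough to compare it with the others.
Jdp2: cgtccccctcTGACGtgtggagctg
Junb: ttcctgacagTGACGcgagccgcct
Mafk: ggcggggcggTGACGcgcttcgacg
No core was found in the windows of Fosl2, Jun and Jund. The Jund window (chr8:70697489-70697788) ended before the Jund gene model on which reads were counted, which starts at 70698949. The bases just before that start were thus not searched. The sites named are matches of letters in a window, no binding was measured, and the members with the core include some that were higher and some that were lower with PGE2.

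Levels were ranked within each group per kilobase of exon. With IL-4 plus valinomycin, Atf3 led with 606 ± 8.29 CPM per kb (SD, n = 3, as for all means here), ahead of Junb with 184 ± 8.02 and Jun with 135 ± 2.27 CPM per kb. With IL-4 plus PGE2, Junb led with 123 ± 14.4 CPM per kb, ahead of Jun with 102 ± 5.17 and Atf3 with 85 ± 1.27 CPM per kb, and these neighbours did not overlap. With IL-4 alone, Atf3 led with 336 ± 9.75 CPM per kb, while Jund (104 ± 2.36), Jun (102 ± 2.38) and Junb (97.9 ± 7.66 CPM per kb) overlapped in their libraries. In unstimulated cells Atf3 had 222 ± 14.1 CPM per kb, followed by Jun (69.1 ± 1.18) and Junb (60.6 ± 0.971), and by Fos (51.6 ± 4.18) and Jund (48.8 ± 1.42 CPM per kb), whose libraries overlapped. Fosb was the lowest member in every wild type group, at 0.155 to 1.78 CPM per kb.

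**Figure D1:**
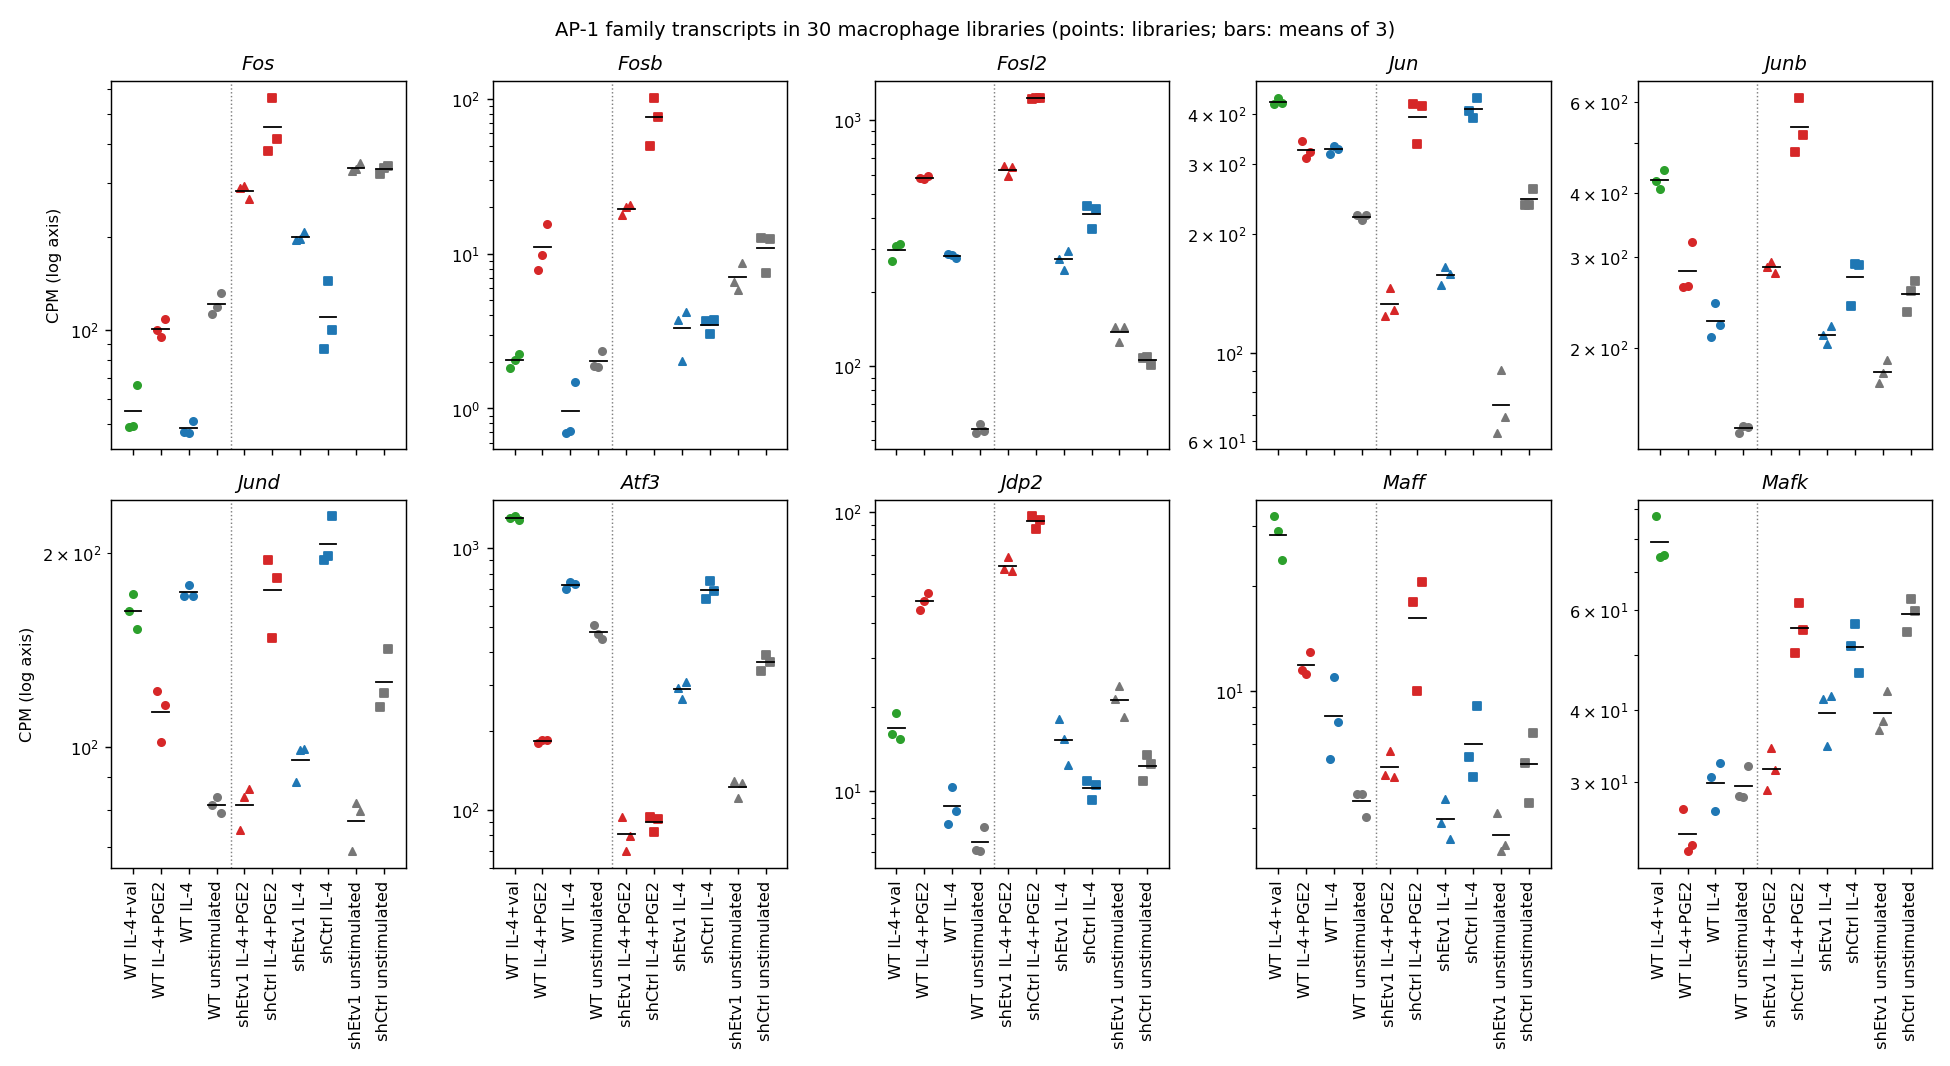
Level of each of the 10 AP-1 family genes (CPM, log axis) in every library, by group; points are libraries, bars are means of 3, and levels are not compared between the wild type and the shRNA experiment. Among wild type groups Atf3 is highest with IL-4 plus valinomycin (1288 to 1323 CPM) and lowest with IL-4 plus PGE2 (180 to 184.9 CPM), and Fosl2 is higher in every stimulated group than in the unstimulated group of its own arm.

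In IL-4 treated wild type macrophages, 7 members rose and 2 fell relative to unstimulated cells, with Fosl2 rising most and Fos and Fosb falling. The call was an adjusted p under 0.05 in edgeR's quasi-likelihood test with Benjamini-Hochberg adjustment over all genes, and 46.4% of all genes passed it, 24% higher and 22.4% lower. Fosl2 (chr5:32135801-32157842), which encodes the Fos-type protein Fra-2, had 285, 282 and 276 CPM in the IL-4 libraries against 53.7, 58.4 and 54.4 CPM in the unstimulated ones. No IL-4 library came near the unstimulated range, and the log2 fold change was 2.34 ± 0.06 (SE, adjusted p = 4.34e-20), a 5.07-fold higher level. Fos (chr12:85473890-85477273), the founding immediate early member, had 46.8, 46.7 and 51.1 CPM with IL-4 against 113, 119 and 132 CPM without stimulus. Every IL-4 library was lower than every unstimulated one, with a log2 fold change of -1.33 ± 0.11 (adjusted p = 2.96e-07).

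Fosb (chr7:19302696-19310051, minus strand), a Fos-type gene, had few reads in these groups, 8, 9 and 19 (0.698, 0.717 and 1.48 CPM) with IL-4 against 22, 20 and 32 (1.87, 1.86 and 2.35 CPM) without stimulus. The groups did not overlap and the log2 fold change was -1.06 ± 0.41 (adjusted p = 0.0436). The call was lost on leaving out IL-4 replicate 1 or 2 or any of the 3 unstimulated replicates, with adjusted p between 0.0156 and 0.154 over all fits that leave out a library, and without IL-4 replicate 3 the log2 fold change was -1.52.

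All 3 Jun-type genes rose with IL-4. Jund (chr8:70698949-70700616), the Jun-type gene least tied to acute stimulation in most cells, had 171, 178 and 172 CPM with IL-4 against 81.4, 83.9 and 79.1 CPM without, a log2 fold change of 1.09 ± 0.06 (adjusted p = 1.92e-13). Junb (chr8:84974484-84978718, minus strand) rose by 0.69 ± 0.07 (adjusted p = 1.72e-07) and Jun (chr4:95049034-95052222, minus strand) by 0.56 ± 0.04 (adjusted p = 1.97e-10) on the log2 scale. In each of the 3 genes the IL-4 libraries stood apart from the unstimulated ones.

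Atf3 (chr1:191170296-191218039, minus strand), a repressor-type member induced by many stresses, had 700.1, 741 and 728 CPM with IL-4 against 510.5, 471 and 451 CPM without (log2 fold change 0.60 ± 0.05, adjusted p = 1.14e-10). Jdp2 (chr12:85599027-85639878), named as a dimerization partner of Jun, had 7.58, 10.3 and 8.44 CPM with IL-4 against 6.13, 6.05 and 7.41 CPM (0.42 ± 0.14, adjusted p = 0.0177). The Jdp2 groups did not overlap but lay close, and without IL-4 replicate 2, unstimulated replicate 1 or unstimulated replicate 2 the call was lost, with adjusted p up to 0.134. Among the small Maf genes, Maff (chr15:79346621-79359076) had 6.37, 10.9 and 8.12 CPM with IL-4 against 5.02, 5.03 and 4.33 CPM (0.84 ± 0.19, adjusted p = 0.000945). Mafk (chr5:139791513-139802653) had 26.6 to 32.3 CPM with IL-4 against 28.2 to 32 CPM, overlapping, with a 95% interval of the log2 fold change from -0.17 to 0.19.

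Adding PGE2 to IL-4 split the family in wild type cells. Fosb, Jdp2, Fos, Fosl2, Maff and Junb rose, Atf3, Jund and Mafk fell, and Jun passed in neither direction. In this comparison 59.4% of all genes were called, 29.9% higher and 29.5% lower. The summed macrophage markers were 26200 to 27200 CPM with IL-4 plus PGE2 against 20600 to 22000 CPM with IL-4. Their part in these results was not tested, and in bulk RNA fewer cells of a type and less RNA per cell cannot be told apart.

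Fosb changed most. It had 7.82, 9.78 and 15.7 CPM (102, 114 and 161 reads) with IL-4 plus PGE2 against 0.698, 0.717 and 1.48 CPM (8, 9 and 19 reads) with IL-4. PGE2 replicate 3 stood above the other two, all PGE2 libraries lay above every IL-4 library, and the log2 fold change was 3.47 ± 0.30 (adjusted p = 1.45e-08). Jdp2 had 44.6, 47.8 and 51.2 CPM with PGE2 against 7.58, 10.3 and 8.44 CPM with IL-4, a tight group well above the other, at 2.44 ± 0.10 (adjusted p = 1.72e-15). Jdp2 lies 121753 bases from Fos on chromosome 12, with both genes on the plus strand.

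Fos had 100, 94.9 and 109 CPM with IL-4 plus PGE2 against 46.8, 46.7 and 51.1 CPM with IL-4, without overlap (1.07 ± 0.11, adjusted p = 2.07e-06). Relative to unstimulated cells Fos was slightly lower with IL-4 plus PGE2, at -0.26 ± 0.10 (adjusted p = 0.0387), a call lost on leaving out PGE2 replicate 1 or 2 or unstimulated replicate 2 or 3, with adjusted p up to 0.135. Fosl2 had 581, 575 and 593 CPM with PGE2 against 285, 282 and 276 CPM with IL-4, without overlap (1.05 ± 0.05, adjusted p = 2.31e-14). The PGE2 level of Fosl2 was 10.5-fold that of unstimulated cells (log2 fold change 3.39 ± 0.06, adjusted p = 2.35e-23).

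Atf3 fell with PGE2 to 180, 184.9 and 184.5 CPM, against 700.1, 741 and 728 CPM with IL-4, which was 0.253 of the IL-4 level (adjusted p = 5.43e-20). It also fell below unstimulated cells, at a log2 fold change of -1.38 ± 0.05 (adjusted p = 1.19e-17). Among the Jun-type genes, Jund had 122, 102 and 116 CPM with PGE2 against 171, 178 and 172 CPM with IL-4 (-0.62 ± 0.06, adjusted p = 3.41e-09). Junb had 263, 264 and 321 CPM against 210.1, 245 and 221 CPM (0.32 ± 0.07, adjusted p = 0.000518), and neither gene's groups overlapped. Jun had 343, 310.3 and 321 CPM against 318, 333 and 327 CPM, overlapping, with a 95% interval of the log2 fold change from -0.09 to 0.08.

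The small Maf genes changed little with PGE2. Maff had 11.5, 11.2 and 12.9 CPM with PGE2 against 6.37, 10.9 and 8.12 CPM with IL-4 (0.47 ± 0.16, adjusted p = 0.0142). The Maff call was lost without IL-4 replicate 1 (0.31, adjusted p = 0.0828), IL-4 replicate 3 (0.0529) or PGE2 replicate 3 (0.0559). Mafk had 22.6 to 26.8 CPM against 26.6 to 32.3 CPM, with overlapping libraries (-0.29 ± 0.09, adjusted p = 0.00982), and that call was lost without IL-4 replicate 3 (adjusted p = 0.062) or PGE2 replicate 2 (0.0544).

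**Figure D2:**
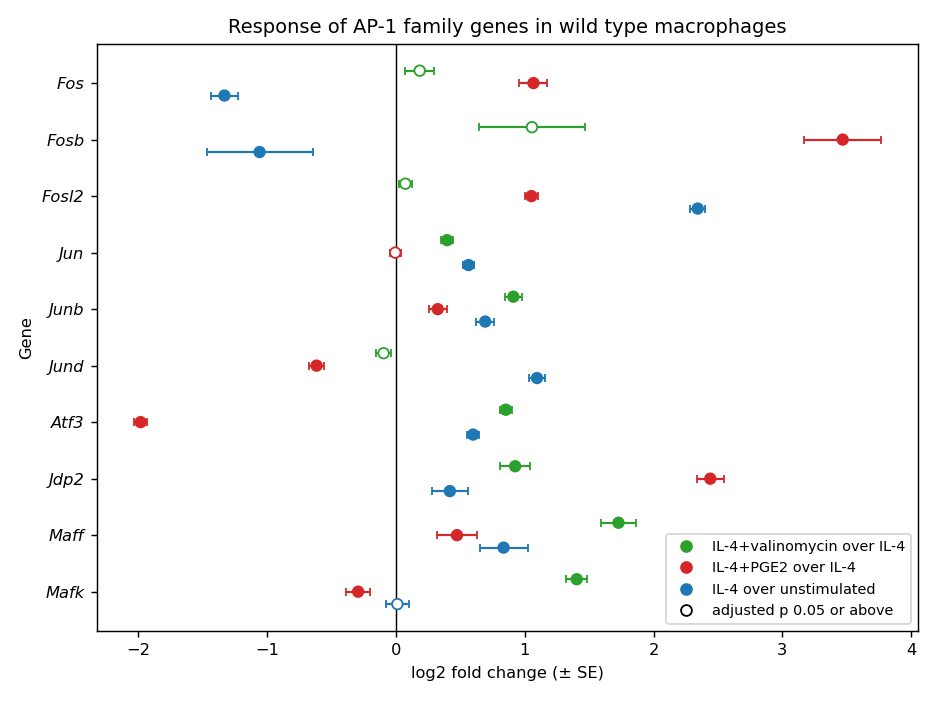
Log2 fold change (± SE) of the 10 genes in wild type macrophages for 3 comparisons, IL-4 plus valinomycin over IL-4, IL-4 plus PGE2 over IL-4, and IL-4 over unstimulated; open points have an adjusted p of 0.05 or above. Fosb (3.47) and Jdp2 (2.44) lie furthest right under PGE2, Atf3 lies furthest left (-1.98), and Maff (1.73) and Mafk (1.40) lie furthest right under valinomycin.

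Valinomycin added to IL-4 raised 6 members, Maff, Mafk, Jdp2, Junb, Atf3 and Jun, and lowered none, where 38.4% of all genes were called, 19.4% higher and 18.9% lower. This comparison and that of PGE2 share the same 3 IL-4 libraries. Maff had 31.9, 28.9 and 23.8 CPM with valinomycin against 6.37, 10.9 and 8.12 CPM with IL-4, a log2 fold change of 1.73 ± 0.14 (adjusted p = 5.52e-09). Mafk had 87.4, 74.2 and 74.8 CPM against 30.5, 26.6 and 32.3 CPM (1.40 ± 0.08, adjusted p = 9.35e-12). Both small Maf genes were well clear of the IL-4 libraries, and the size of their log2 fold change stood at the percentiles 99.5 and 99.2 of all genes tested. The summed macrophage markers were 19100 to 20100 CPM with valinomycin against 20600 to 22000 CPM with IL-4, and their part was not tested.

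Atf3 reached 1306, 1323 and 1288 CPM with valinomycin against 700.1, 741 and 728 CPM with IL-4 (0.85 ± 0.05, adjusted p = 1.18e-12). Junb had 421, 407 and 444 CPM against 210.1, 245 and 221 CPM (0.91 ± 0.07, adjusted p = 7.35e-09), Jdp2 rose by 0.93 ± 0.12 (adjusted p = 1.44e-06) and Jun by 0.40 ± 0.04 (adjusted p = 1.54e-07) on the log2 scale. In these 4 genes no valinomycin library overlapped an IL-4 library. Fos (95% interval of the log2 fold change -0.04 to 0.41), Fosl2 (-0.03 to 0.17) and Jund (-0.21 to 0.02) had overlapping libraries and did not pass. Fosl2 passed without valinomycin replicate 1 (0.16, adjusted p = 0.0114), and Fos passed without the low-count filter (0.21, adjusted p = 0.0102).

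Fosb had 1.83, 2.06 and 2.24 CPM (24, 24 and 28 reads) with valinomycin against 0.698, 0.717 and 1.48 CPM with IL-4. The groups did not overlap, the log2 fold change was 1.06 ± 0.41, and the adjusted p of 0.0508 lay just short of the threshold. Among other fits it passed with DESeq2 (adjusted p = 0.0121), with RLE normalization (0.0466), without the low-count filter (0.0021), with only the 2 groups in the fit (0.0146) and without IL-4 replicate 3 (0.0197), and it ranged from 0.0197 to 0.171 over the fits that leave out a library.

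Set directly against each other, IL-4 plus PGE2 and IL-4 plus valinomycin differed in all 10 members, where 63.2% of genes were called, 31.7% higher and 31.5% lower with PGE2. Fosb (log2 fold change 2.41 ± 0.26), Jdp2 (1.51 ± 0.09), Fosl2 (0.98 ± 0.05) and Fos (0.88 ± 0.11) were higher with PGE2. Atf3 (-2.83 ± 0.05, adjusted p = 3.53e-22), Mafk (-1.70 ± 0.08), Maff (-1.25 ± 0.13), Junb (-0.59 ± 0.07), Jund (-0.52 ± 0.06) and Jun (-0.40 ± 0.04) were lower with PGE2. The 3 Fos-type members and Jdp2 thus stood on the PGE2 side, and the 3 Jun-type genes, Atf3 and both small Maf genes on the valinomycin side. Libraries overlapped in no member, but the share of all genes without overlap was not counted. Jdp2, which rose over IL-4 with either agent, averaged 47.8 ± 3.31 CPM with PGE2 and 16.8 ± 2.00 CPM with valinomycin.

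Relative to unstimulated cells, IL-4 plus PGE2 had 7 members higher and 3 lower (Atf3, Mafk and Fos), against 58.7% of genes called, 30.1% higher and 28.6% lower. IL-4 plus valinomycin had 8 higher and 1 lower (Fos), against 52.7% called, 26.9% higher and 25.8% lower. With valinomycin Fos was at -1.15 ± 0.11 (adjusted p = 8.93e-07) and Maff at 2.56 ± 0.15 (adjusted p = 1.4e-11) on the log2 scale. Mafk with IL-4 plus PGE2 (-0.28 ± 0.09, adjusted p = 0.0128) lost its call without PGE2 replicate 2 or unstimulated replicate 3, with adjusted p up to 0.0836.

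The make-up of the subfamilies also differed between groups. Of the summed level per kb of the 3 Fos-type members, Fosl2 made up 58.5% ± 1.69 with IL-4 against 9.99% ± 0.83 in unstimulated wild type cells, and Fos made up 41.2% ± 1.55 against 89.5% ± 0.791. With a further agent the Fosl2 share was close to that with IL-4 alone, at 56.6% ± 3.41 with valinomycin and 57.4% ± 1.52 with PGE2. The summed Fos-type level was 54.2 ± 6.39 CPM per kb with IL-4 plus valinomycin, 105 ± 4.44 with IL-4 plus PGE2, 49.7 ± 0.713 with IL-4 and 57.6 ± 4.2 in unstimulated cells.

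Jdp2 made up 20.7% ± 0.944 of the summed Atf3 and Jdp2 level with IL-4 plus PGE2, against 1.2% ± 0.155 with IL-4. The sum itself was 107 ± 2.68 CPM per kb with PGE2 against 340 ± 10.3 CPM per kb with IL-4. Of the Jun-type sum, Junb made up 44.2% ± 1.91 with valinomycin and 41.9% ± 3.13 with PGE2, against 32.1% ± 1.22 with IL-4. The small Maf sum was 31.1 ± 3.27 CPM per kb with valinomycin against 10.9 ± 0.583 CPM per kb with IL-4. These shares are of RNA, they take the union of annotated exons as the length of each gene, and no test was run on them.

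**Figure D3:**
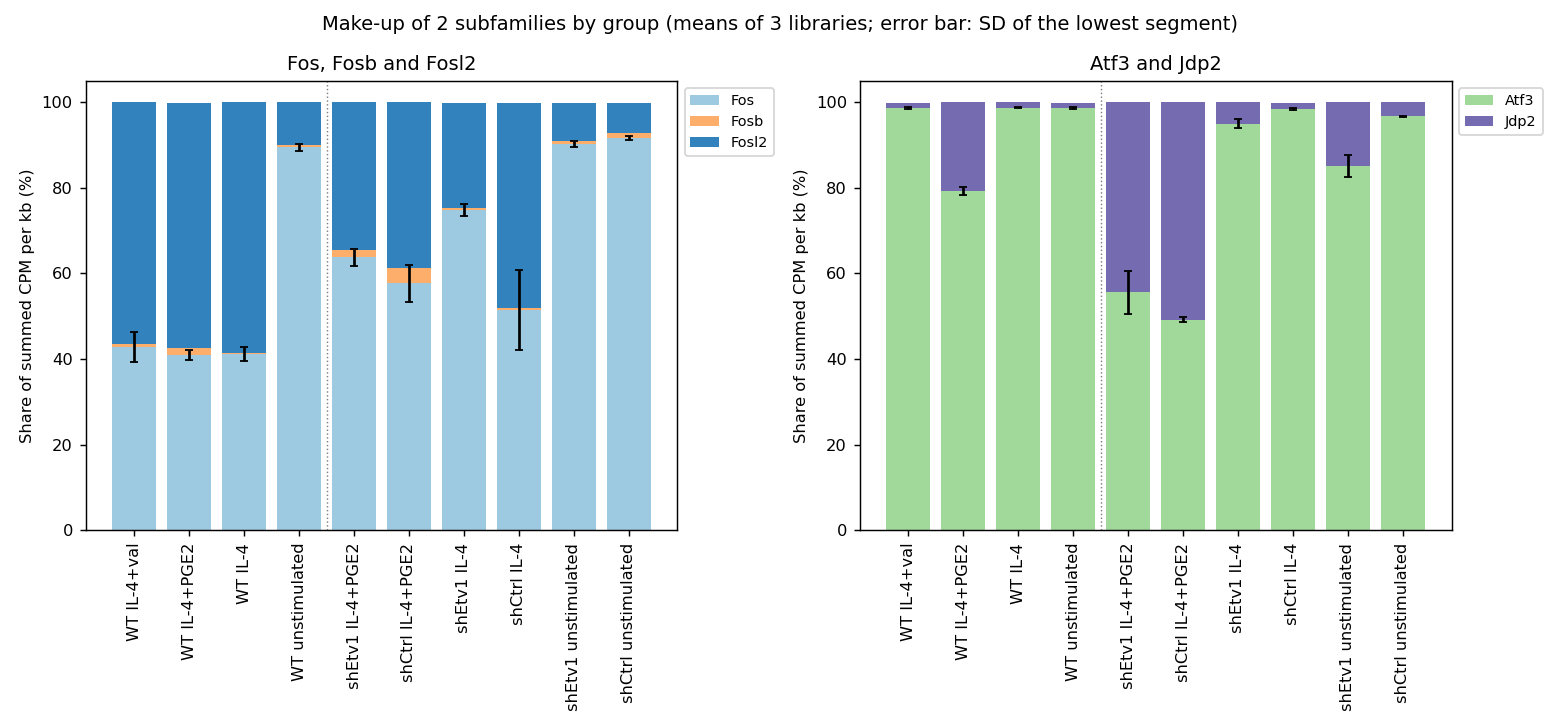
Mean share (%) of Fos, Fosb and Fosl2 in their summed CPM per kb (left) and of Atf3 and Jdp2 in theirs (right) for the 10 groups; error bars are the SD over 3 libraries of the lowest segment. Fosl2 takes 56.6% to 58.5% in the 3 IL-4 groups of wild type cells against 9.99% in unstimulated cells, and Jdp2 takes its largest shares in the 3 groups with PGE2 (20.7%, 44.4% and 50.8%).

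In the shRNA experiment the targeted gene was checked first. Etv1 had 9.08, 7.72 and 9.86 CPM in Etv1 shRNA cells with IL-4 plus PGE2 against 29.1, 21.8 and 33.1 CPM in control shRNA cells. It had 6, 4.97 and 5.02 CPM against 15.3, 11.5 and 14.9 CPM with IL-4, and 4.84, 2.51 and 2.97 CPM against 10.9, 10.4 and 10.5 CPM without stimulus. No group overlapped its counterpart, and the level in Etv1 shRNA cells was 0.314, 0.381 and 0.31 of the control level in these 3 conditions (adjusted p = 5.4e-08, 4.41e-06 and 1.16e-06).

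The summed macrophage markers were lower in every Etv1 shRNA group, at 10100 to 11300 CPM against 19800 to 21400 CPM in control shRNA cells with IL-4 plus PGE2, 10100 to 11100 CPM against 17800 to 18600 CPM with IL-4, and 8880 to 9540 CPM against 17900 to 19800 CPM without stimulus. Their part in the differences between hairpins was not tested. Control shRNA with IL-4 plus PGE2 replicate 3 was the deepest library, with 30473040 counts.

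Control shRNA replicate 2 stood apart from replicates 1 and 3 in all 3 conditions, with a chi-square per degree of freedom of 12.13 to 20.34 in the 6 pairs that include it, against 2.274 to 6.69 in the other 12 pairs of replicates of the shRNA experiment. Leaving it out of all 3 conditions together changed 3 member calls, 2 gained and 1 lost, which are given with their genes. Within each hairpin, libraries with the same replicate number deviated together, so values from a fit with a block for each number within each hairpin, called the blocked fit, are given where they change a call.

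In control shRNA cells, IL-4 raised Fosl2, Atf3, Jun and Jund and lowered Fos and Fosb, 6 members against 34.3% of all genes called, 17.2% higher and 17.1% lower. Fosl2 had 448, 360.4 and 436 CPM with IL-4 against 108, 109 and 101 CPM without stimulus (1.97 ± 0.08, adjusted p = 1.18e-12). Fos had 87.1, 145 and 100 CPM against 319, 335 and 338 CPM, well apart although IL-4 replicate 2 stood above the other two (-1.58 ± 0.16, adjusted p = 1.97e-06). Fosb had 3.05 to 3.72 CPM against 7.50 to 12.7 CPM (-1.65 ± 0.34, adjusted p = 0.00156). Atf3 rose by 0.92 ± 0.09, Jun by 0.76 ± 0.11 and Jund by 0.71 ± 0.10 on the log2 scale, while Junb, Maff, Mafk and Jdp2 had overlapping libraries and did not pass. Without replicate 2 in all 3 conditions the Fos value was -1.81. Mafk passed in the blocked fit (-0.18, adjusted p = 0.0372).

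PGE2 on top of IL-4 raised 6 members and lowered 1 in control shRNA cells, where 59.4% of genes were called, 29.3% higher and 30.1% lower. Fosb had 49.8, 102 and 76.3 CPM with PGE2 against 3.66, 3.05 and 3.72 CPM with IL-4, 21.7-fold higher (4.44 ± 0.30, adjusted p = 1.07e-08). Jdp2 had 96.2, 87 and 93.8 CPM against 10.8, 9.26 and 10.5 CPM (3.17 ± 0.12, adjusted p = 4.02e-14), and Fos had 378, 563 and 416 CPM against 87.1, 145 and 100 CPM (2.04 ± 0.16, adjusted p = 6.54e-08). In each of the 3 genes every PGE2 library lay far above every IL-4 library. Fosl2 had 1218, 1231 and 1229 CPM against 448, 360.4 and 436 CPM (1.56 ± 0.08, adjusted p = 3.86e-12), Maff rose by 1.25 ± 0.22 and Junb by 0.97 ± 0.08. Atf3 fell to 94, 82.7 and 92.7 CPM, against 640.4, 751 and 686 CPM (-2.94 ± 0.10, adjusted p = 1.04e-13), and with PGE2 its level per kb (41.7 ± 2.88 CPM per kb) overlapped that of Jdp2 (43 ± 2.22 CPM per kb). Jund did not pass (-0.24 ± 0.10, adjusted p = 0.0558), but passed in the blocked fit (-0.24, adjusted p = 0.00208) and without PGE2 replicate 1 (-0.31, adjusted p = 0.0243).

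In Etv1 shRNA cells IL-4 raised Atf3, Jun and Fosl2 and lowered Fos and Jdp2, against 18% of genes called, 10.9% higher and 7.16% lower. Fosl2 had 273, 246 and 295 CPM with IL-4 against 145, 126 and 144 CPM (0.98 ± 0.08, adjusted p = 3.04e-08), Atf3 rose by 1.24 ± 0.10 and Jun by 1.08 ± 0.12, and the log2 fold change of Fos was -0.74 ± 0.16 (adjusted p = 0.00359). Jdp2 had 18, 15.3 and 12.4 CPM with IL-4 against 21.4, 23.7 and 18.4 CPM without stimulus (-0.48 ± 0.12, adjusted p = 0.00796). The Jdp2 groups lay close, and the call was lost without IL-4 replicate 3 (adjusted p = 0.0603) or unstimulated replicate 2 (0.0636). Fosb, Junb and Jund, with adjusted p of 0.0583, 0.0584 and 0.0542, had groups that did not overlap and passed when only these 2 groups entered the fit (0.00847, 0.00829 and 0.0115). In the blocked fit Junb (0.24, adjusted p = 0.00135) and Jund (0.31, adjusted p = 0.0018) passed, and with DESeq2 Fosb (adjusted p = 0.00129) and Jund (0.045) did.

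PGE2 on IL-4 in Etv1 shRNA cells raised Fosb, Jdp2, Fosl2, Fos and Junb and lowered Atf3 and Mafk, against 47.5% of genes called, 24.6% higher and 22.8% lower. Fosb had 17.9, 19.9 and 20.6 CPM with PGE2 against 3.73, 2.02 and 4.19 CPM with IL-4 (2.56 ± 0.33, adjusted p = 1.73e-05), and Jdp2 had 62.3, 68.6 and 61.4 CPM against 18, 15.3 and 12.4 CPM (2.08 ± 0.11, adjusted p = 2.39e-11). Both were fully separated. Fos had 287, 292 and 266 CPM against 196, 198 and 207 CPM (0.49 ± 0.16, adjusted p = 0.0177), a call lost without IL-4 replicate 1 or 2 or PGE2 replicate 2, with adjusted p up to 0.053. Atf3 fell to 94, 69.5 and 79.7 CPM, against 292.5, 266 and 309.7 CPM (-1.83 ± 0.10, adjusted p = 1.03e-10). Mafk (-0.33 ± 0.10, adjusted p = 0.0104) lost its call without IL-4 replicate 3 or PGE2 replicate 1, with adjusted p up to 0.0594. With only these 2 groups in the fit, Jun (-0.25, adjusted p = 0.00612), Jund (-0.24, adjusted p = 0.00984) and Maff (0.49, adjusted p = 0.0294) also passed. The same 3 genes passed in the blocked fit, with adjusted p of 0.00239 for Jun, 0.00797 for Jund and 0.0132 for Maff.

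Relative to unstimulated cells of the same hairpin, IL-4 plus PGE2 had 6 members higher and 2 lower in Etv1 shRNA cells (51% of genes called, 28% higher and 23.1% lower), and 8 higher and 1 lower in control shRNA cells (61.5% called, 30.3% higher and 31.2% lower). Fosl2 was 4.55-fold higher in Etv1 shRNA cells and 11.6-fold higher in control shRNA cells. In Etv1 shRNA cells Fos also passed as lower with only the 2 groups in the fit (-0.28, adjusted p = 0.000257). The Maff call there (0.67 ± 0.27, adjusted p = 0.0477) was lost on leaving out any 1 of the 6 libraries, with adjusted p between 0.0511 and 0.138, and without the low-count filter (0.122). The Mafk call (-0.33 ± 0.10, adjusted p = 0.009) was lost there without PGE2 replicate 1 or unstimulated replicate 3, with adjusted p up to 0.0639. In control shRNA cells the Fos call (0.45 ± 0.15, adjusted p = 0.0197) was lost without PGE2 replicate 2 (0.27, adjusted p = 0.12), unstimulated replicate 1 (0.0599) or the low-count filter (0.0568). Without replicate 2 in all 3 conditions it was 0.28 (adjusted p = 0.0008).

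Set against control shRNA at the same stimulus, Etv1 shRNA cells had lower levels of all 3 Jun-type genes in all 3 conditions, whereas Fosl2 and Jdp2 were lower in some conditions and higher in others, and Fos was lower, higher and overlapping. With IL-4 plus PGE2, 9 members were lower and 0 higher (54.3% of genes called, 27.6% higher and 26.7% lower), with Atf3 not passing. With IL-4, 7 were lower and 2 higher (51% called, 25.6% lower and 25.4% higher), and without stimulus 6 were lower and 2 higher (51.7% called, 26.8% lower and 24.9% higher).

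Jun differed by similar amounts in the 3 conditions. It had 124, 146 and 129 CPM in Etv1 shRNA cells against 424, 336 and 420 CPM in control shRNA cells with IL-4 plus PGE2 (-1.57 ± 0.11, adjusted p = 8.58e-09). With IL-4 it had 148, 165 and 158 CPM against 406, 390.1 and 439 CPM (-1.39 ± 0.11, adjusted p = 4.44e-08), and without stimulus 63.1, 90.5 and 68.9 CPM against 236, 237 and 258 CPM (-1.71 ± 0.12, adjusted p = 5.25e-09). Every Etv1 shRNA library had less Jun than the lowest control shRNA library of any condition. Jund differed by -1.11 ± 0.11 with IL-4 plus PGE2, -1.11 ± 0.10 with IL-4 and -0.71 ± 0.11 without stimulus, and Junb by -0.90 ± 0.08, -0.37 ± 0.08 and -0.50 ± 0.08 on the log2 scale, each without overlap of libraries.

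Atf3 was lower in Etv1 shRNA cells with IL-4, at 292.5, 266 and 309.7 CPM against 640.4, 751 and 686 CPM (-1.26 ± 0.10, adjusted p = 6.67e-09), and without stimulus, at 129, 111 and 127 CPM against 341, 392.5 and 368 CPM (-1.59 ± 0.10, adjusted p = 4.21e-10). With IL-4 plus PGE2 it had 94, 69.5 and 79.7 CPM against 94, 82.7 and 92.7 CPM, overlapping, and the 95% interval of the log2 fold change ran from -0.34 to 0.05. Without Etv1 shRNA replicate 1 this last difference passed, at -0.27 (adjusted p = 0.0277). Jdp2 had 62.3, 68.6 and 61.4 CPM in Etv1 shRNA cells against 96.2, 87 and 93.8 CPM in control shRNA cells with IL-4 plus PGE2 (-0.53 ± 0.10, adjusted p = 0.000116). It was higher in Etv1 shRNA cells with IL-4 (0.57 ± 0.13, adjusted p = 0.00141) and without stimulus (0.80 ± 0.12, adjusted p = 1.48e-05), and its groups overlapped in none of the 3 conditions.

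Fosl2 had 651.5, 591 and 642 CPM in Etv1 shRNA cells against 1218, 1231 and 1229 CPM in control shRNA cells with IL-4 plus PGE2 (-0.96 ± 0.08, adjusted p = 4.76e-09), and was lower with IL-4 (-0.61 ± 0.08, adjusted p = 2.53e-06). Without stimulus it was higher, at 145, 126 and 144 CPM against 108, 109 and 101 CPM (0.38 ± 0.08, adjusted p = 0.000556). Fos was lower with IL-4 plus PGE2 (-0.68 ± 0.15, adjusted p = 0.00182), higher with IL-4 (0.86 ± 0.16, adjusted p = 0.000418), and overlapping without stimulus, at 326 to 347 CPM against 319 to 338 CPM. Fosb had 17.9, 19.9 and 20.6 CPM against 49.8, 102 and 76.3 CPM with IL-4 plus PGE2, well below every control library (-1.97 ± 0.24, adjusted p = 6.72e-06). Its libraries overlapped in the other two conditions. Without stimulus its difference (-0.63 ± 0.30, adjusted p = 0.0966) passed with DESeq2 (0.0367), with only the 2 groups in the fit (0.0477) and without control shRNA replicate 2 in that condition (0.036) or in all 3 (-0.81, adjusted p = 0.0125).

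Mafk was lower in Etv1 shRNA cells in all 3 conditions, with log2 fold changes of -0.82 ± 0.10 with IL-4 plus PGE2, -0.38 ± 0.10 with IL-4 and -0.57 ± 0.10 without stimulus. Maff had 5.72, 6.70 and 5.62 CPM against 18.1, 9.97 and 20.6 CPM with IL-4 plus PGE2 (-1.47 ± 0.22, adjusted p = 2.3e-05), with control shRNA replicate 2 well below the other two. Its lower level with IL-4 (-0.72 ± 0.26, adjusted p = 0.0313) lost its call without control shRNA replicate 3 or Etv1 shRNA replicate 1 or 3, with adjusted p up to 0.141. Without stimulus (-0.70 ± 0.27, adjusted p = 0.0359) the call was lost without control shRNA replicate 1 or 3 or Etv1 shRNA replicate 2 or 3, with adjusted p up to 0.118. Both Maff calls were also lost without the low-count filter (adjusted p = 0.0642 with IL-4 and 0.0771 without stimulus).

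**Figure D4:**
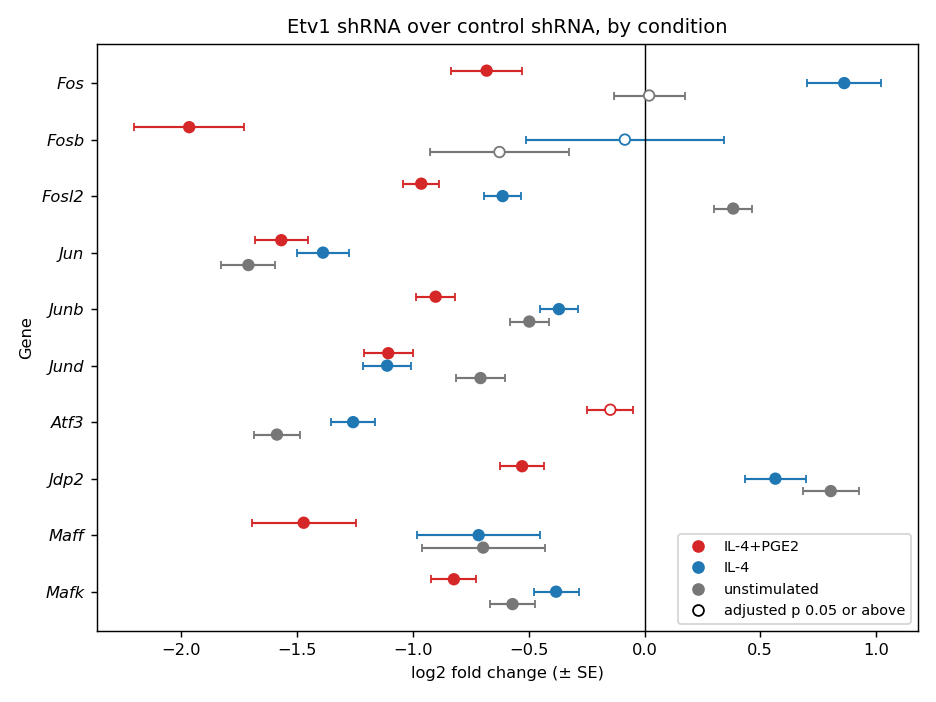
Log2 fold change (± SE) of Etv1 shRNA over control shRNA for the 10 genes with IL-4 plus PGE2, with IL-4, and with no stimulus; open points have an adjusted p of 0.05 or above. The 3 points of Jun lie close together between -1.71 and -1.39, those of Atf3 spread over -1.59 without stimulus, -1.26 with IL-4 and -0.15 with IL-4 plus PGE2, and those of Fos, Fosl2 and Jdp2 fall on both sides of 0.

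Whether the hairpins differed in the response to PGE2 was tested as the difference of their log2 fold changes of IL-4 plus PGE2 over IL-4. It passed for 7 of 10 members, 6 with a lower value in Etv1 shRNA cells and 1 with a higher one, against 11.6% of all genes called (5.58% lower and 6.03% higher). The PGE2 response of Fos was 0.49 ± 0.16 in Etv1 shRNA cells against 2.04 ± 0.16 in control shRNA cells, a difference of -1.54 ± 0.22 (adjusted p = 0.000477). For Jdp2 the responses were 2.08 ± 0.11 against 3.17 ± 0.12 (difference -1.09 ± 0.16, adjusted p = 0.000206), and for Junb 0.44 ± 0.08 against 0.97 ± 0.08 (difference -0.53 ± 0.12, adjusted p = 0.00498). Atf3 fell less with PGE2 in Etv1 shRNA cells, at -1.83 ± 0.10 against -2.94 ± 0.10 (difference 1.11 ± 0.14, adjusted p = 5.77e-05). Its level with IL-4 was lower there and its levels with PGE2 overlapped. Relative to control shRNA cells, Fos was higher in Etv1 shRNA cells with IL-4 (0.86 ± 0.16) and lower with IL-4 plus PGE2 (-0.68 ± 0.15). Jdp2 was also higher with IL-4 (0.57 ± 0.13) and lower with IL-4 plus PGE2 (-0.53 ± 0.10). The calls of Fos, Jdp2, Junb and Atf3 for the difference in response held on leaving out any single library.

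For Fosb the responses were 2.56 ± 0.33 in Etv1 shRNA cells against 4.44 ± 0.30 in control shRNA cells (difference -1.88 ± 0.50, adjusted p = 0.0236). This call was lost without control shRNA IL-4 replicate 1 or 2 or Etv1 shRNA IL-4 replicate 1 or 3 (adjusted p up to 0.0998), in the blocked fit (-1.82, adjusted p = 0.0862) and without the low-count filter (0.0628). For Fosl2 the responses were 1.21 ± 0.08 against 1.56 ± 0.08 (difference -0.35 ± 0.11, adjusted p = 0.0438), and for Mafk -0.33 ± 0.10 against 0.11 ± 0.09 (difference -0.44 ± 0.14, adjusted p = 0.0425). The Fosl2 call was lost without control shRNA IL-4 replicate 2, control shRNA PGE2 replicate 2 or 3, Etv1 shRNA IL-4 replicate 1 or 3, or any Etv1 shRNA PGE2 replicate, with adjusted p up to 0.128, and without control shRNA replicate 2 in all 3 conditions (-0.27, adjusted p = 0.0711). The Mafk call was lost without control shRNA IL-4 replicate 1 or 3, control shRNA PGE2 replicate 2 or 3, Etv1 shRNA IL-4 replicate 1 or 3, or Etv1 shRNA PGE2 replicate 1 or 3, with adjusted p up to 0.12. Both were also lost with only the 4 groups of the comparison in the fit (adjusted p = 0.0675 for Fosl2 and 0.0643 for Mafk). Maff did not pass (-0.76 ± 0.35, adjusted p = 0.185), but passed without control shRNA PGE2 replicate 2 (-0.99, adjusted p = 0.0183), without control shRNA replicate 2 in all 3 conditions (-0.89, adjusted p = 0.0153) and in the blocked fit (-0.72, adjusted p = 0.0159).

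**Figure D5:**
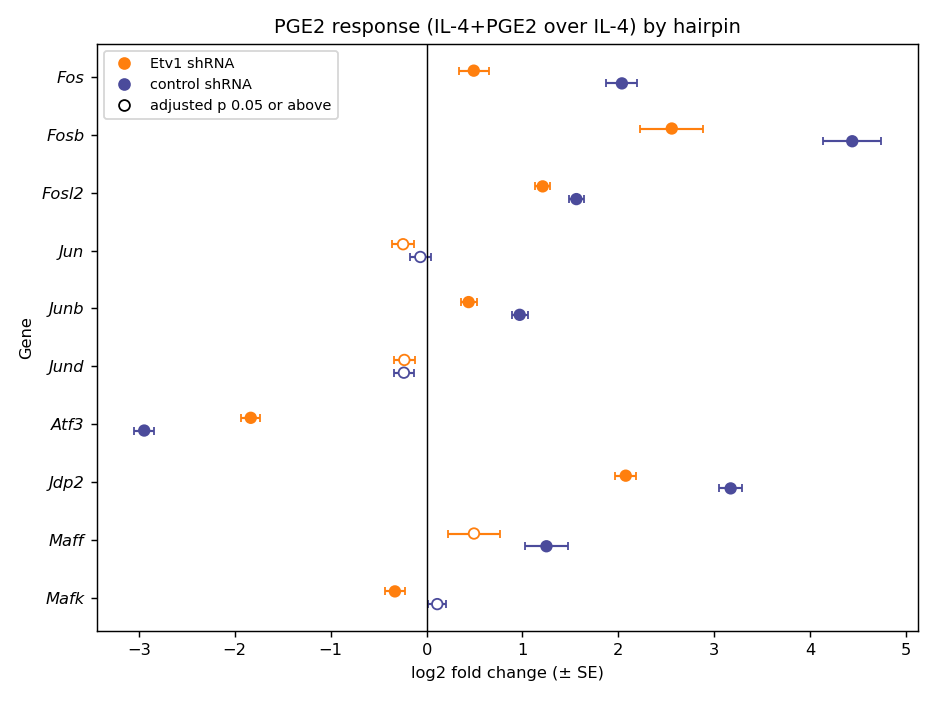
PGE2 response (log2 fold change of IL-4 plus PGE2 over IL-4, ± SE) of the 10 genes in Etv1 shRNA and control shRNA macrophages; open points have an adjusted p of 0.05 or above. Fos (0.49 against 2.04), Fosb (2.56 against 4.44) and Jdp2 (2.08 against 3.17) lie further left in Etv1 shRNA cells and Atf3 lies further right (-1.83 against -2.94), while Jund shows -0.23 against -0.24.

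The response to IL-4 differed between hairpins for 2 members, 1 higher and 1 lower in Etv1 shRNA cells, against 4.51% of all genes called (2.71% higher and 1.81% lower). For Fosl2 it was 0.98 ± 0.08 in Etv1 shRNA cells against 1.97 ± 0.08 in control shRNA cells (difference -0.996 ± 0.113, adjusted p = 4.84e-05), and this call held on leaving out any single library. For Fos it was -0.74 ± 0.16 against -1.58 ± 0.16 (difference 0.84 ± 0.22, adjusted p = 0.0458). The Fos call was lost on leaving out any of the 12 libraries except control shRNA IL-4 replicate 2, with adjusted p from 0.000699 to 0.123, and without the low-count filter (0.102). With control shRNA replicate 2 left out of all 3 conditions the Fos difference was 1.05 (adjusted p = 4.33e-08). The other 8 members did not pass, although Jun passed without Etv1 shRNA unstimulated replicate 2 (0.49, adjusted p = 0.04). In the blocked fit 5 members passed, with Jun (0.33, adjusted p = 0.0162), Atf3 (0.33, adjusted p = 0.0196) and Jund (-0.40, adjusted p = 0.00663) besides Fosl2 and Fos.

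Members with a neighbour on the opposite strand are less certain, because the strand setting of the counting is not given in the sources used here. Junb shares 173 of its 2301 exonic bases with Prdx2, which had 129 to 416 CPM. Prdx2 changed by 0.44 ± 0.05 with PGE2 and by -0.25 ± 0.05 with valinomycin over IL-4 in wild type cells, where Junb changed by 0.32 and 0.91 on the log2 scale. In the shRNA experiment it rose with PGE2 over IL-4 by 0.73 ± 0.09 in Etv1 shRNA cells and by 1.02 ± 0.09 in control shRNA cells, where Junb rose by 0.44 and 0.97. Between hairpins Prdx2 was higher in Etv1 shRNA cells with IL-4 (0.51 ± 0.09) and without stimulus (0.57 ± 0.09), where Junb was lower. Jun shares 232 of 3189 bases with the antisense gene Junos (0.672 to 25.8 CPM). In wild type cells Junos rose by 1.56 ± 0.14 with IL-4, where Jun rose by 0.56. It rose by 0.84 ± 0.11 with PGE2 over IL-4, where Jun passed in neither direction. With valinomycin Junos did not pass, where Jun rose. Junos also rose with IL-4 in control shRNA (1.79 ± 0.21) and Etv1 shRNA cells (1.24 ± 0.26), as Jun did. Between hairpins Junos was lower in Etv1 shRNA cells with IL-4 plus PGE2 (-0.67 ± 0.17) and with IL-4 (-0.92 ± 0.20), as Jun was. Without stimulus only Jun passed. Jund shares 877 of 1668 bases with Gm11175 (0.134 to 0.805 CPM), and Mafk shares 169 of 3901 with Tmem184a (0.134 CPM or less). How reads in shared bases were counted is not known. Levels and shares per kb divide by all exonic bases, 1668 for Jund, so those of Jund are the least certain here. Fos, Fosb, Fosl2 and Maff have no overlapping gene in the annotation.

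Around the 10 members, 3 further lists were counted, 16 other bZIP partners, 27 upstream kinases and inducers, and 18 genes with described AP-1 sites, of which 16 were tested. With PGE2 over IL-4 in wild type cells, where 59.4% of all genes were called, 7 bZIP partners rose and 4 fell, with a median log2 fold change of 0.30 against 0.01 over all genes. There 16 upstream genes rose and 4 fell (median 0.27), and 5 of the AP-1 site genes rose and 5 fell (median -0.01). Batf3, a BATF factor that pairs with Jun proteins, averaged 2.85 ± 0.333 CPM with PGE2 and 34.3 ± 2.96 CPM with IL-4 (-3.58 ± 0.12, adjusted p = 2.41e-17). Maf, a large Maf factor of macrophages, averaged 700.5 ± 36.2 CPM with PGE2 and 221.5 ± 23.7 CPM with IL-4 (1.66 ± 0.06, adjusted p = 3.75e-15).

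Map2k4, whose product activates the kinases that phosphorylate Jun, averaged 196 ± 10.8 CPM with PGE2 and 65.7 ± 0.808 CPM with IL-4 (1.58 ± 0.05, adjusted p = 3.23e-17). Mapk8, the gene of the Jun kinase JNK1, averaged 35.9 ± 2.56 CPM and 16.7 ± 1.40 CPM (1.10 ± 0.08, adjusted p = 7.2e-11). Of the AP-1 site genes, the protease inhibitor gene Timp1 rose by 2.67 ± 0.27, the cytokine gene Il1b by 2.42 ± 0.28 and the angiogenic factor gene Vegfa by 1.68 ± 0.19, while the cyclin gene Ccnd1 was at -2.22 ± 0.13.

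With IL-4 over no stimulus in wild type cells, where 46.4% of all genes were called, 7 bZIP partners rose and 4 fell (median log2 fold change 0.12, against 0.01 over all genes), 11 upstream genes rose and 8 fell (0.11), and 4 AP-1 site genes rose and 4 fell (0.05). Batf3 averaged 34.3 ± 2.96 CPM with IL-4 and 1.64 ± 0.0346 CPM without (4.38 ± 0.13, adjusted p = 2.21e-18). Hbegf, an EGF-type growth factor gene, rose by 3.85 ± 0.12 and the chemokine gene Ccl2 by 3.37 ± 0.18. With valinomycin over IL-4, where 38.4% of all genes were called, 10 bZIP partners rose and 3 fell (median 0.25, against -0.03 over all genes), 8 upstream genes rose and 8 fell (0.06), and 7 AP-1 site genes rose and 2 fell (0.16). The stress factor gene Atf4 averaged 537 ± 47.5 CPM with valinomycin and 180.7 ± 5.13 CPM with IL-4 (1.57 ± 0.05, adjusted p = 8.03e-16). Ddit3, a stress-induced partner of C/EBP factors, averaged 141 ± 17.8 CPM and 24.6 ± 0.967 CPM (2.52 ± 0.09, adjusted p = 1.34e-12).

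Between hairpins with IL-4 plus PGE2, where 54.3% of all genes were called, 3 bZIP partners were higher and 10 lower in Etv1 shRNA cells (median log2 fold change -0.73, against -0.0012 over all genes), 7 upstream genes were higher and 12 lower (-0.07), and 2 AP-1 site genes were higher and 9 lower (-0.70), beside a median of -0.93 over the 10 members. Map2k4 averaged 141 ± 2.05 CPM in Etv1 shRNA cells and 288 ± 11.3 CPM in control shRNA cells (-1.04 ± 0.04, adjusted p = 8.58e-13). Bach1, a partner of the small Maf proteins, averaged 133 ± 2.35 CPM and 302 ± 20.8 CPM (-1.19 ± 0.07, adjusted p = 8.11e-11). Of the AP-1 site genes, Tnf (-1.82 ± 0.15), Timp1 (-1.90 ± 0.24) and Vegfa (-1.71 ± 0.17) were lower in Etv1 shRNA cells. Hmox1, an AP-1 site gene among the higher ones, averaged 2460 ± 126.6 CPM and 720.4 ± 59.5 CPM (1.77 ± 0.14, adjusted p = 7.37e-08). It was also higher in Etv1 shRNA cells with IL-4 alone (1.46 ± 0.14). Of the AP-1 site genes, 3 were higher and 5 lower in Etv1 shRNA cells with IL-4, where 51% of all genes were called. Their median there was 0.09, beside -0.50 over the 10 members. Without stimulus 3 were higher and 5 lower, where 51.7% of all genes were called, with medians of -0.35 and -0.60. The difference in PGE2 response between hairpins, called for 11.6% of all genes (6.03% higher and 5.58% lower), passed for 2 bZIP partners with a higher and 6 with a lower value (median -0.30, against 0.01 over all genes), for 1 upstream gene with a higher and 6 with a lower value (-0.15), and for 0 AP-1 site genes with a higher and 3 with a lower value (-0.40). The last 3 include Timp1 (-2.81 ± 0.60, adjusted p = 0.00474) and Vegfa (-1.90 ± 0.27, adjusted p = 0.000477).

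Fosl1, the gene of the Fos-type protein Fra-1, was counted among the bZIP partners and is left out of the Fos-type sums and shares. It averaged 13.8 ± 2.75 CPM in Etv1 shRNA cells against 8.93 ± 1.44 CPM in control shRNA cells with IL-4 plus PGE2, 18.2 ± 2.28 against 4.98 ± 0.594 CPM with IL-4, and 22.1 ± 1.18 against 10 ± 0.225 CPM without stimulus. It was thus higher in Etv1 shRNA cells in all 3 conditions, by 0.59 ± 0.14, 1.86 ± 0.16 and 1.14 ± 0.14 on the log2 scale (adjusted p = 0.00176, 1.15e-08 and 1.03e-06). Its PGE2 response was -0.40 ± 0.14 in Etv1 shRNA cells against 0.87 ± 0.17 in control shRNA cells, a difference of -1.27 ± 0.22 (adjusted p = 0.000636). In wild type cells it had 0.638 to 2.07 CPM and passed in none of the 6 comparisons (adjusted p of 0.159 or more). Its values in all comparisons were drawn after some of them had been seen.

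The genes whose level followed each member most closely over the 10 groups were found by the root mean square difference of mean log2 CPM, with each experiment centred on its own mean, among 11905 genes tested in both. Fosl2 was matched most closely by Jcad (0.193), Ripk2 (0.199) and Hhat (0.225), where Fosl2 itself varied with a standard deviation of 1.29 over the groups. Jdp2 was matched by Adm (0.268), Rundc3b (0.336) and Prkce (0.344), and Fosb by Vegfa (0.358), Tlr9 (0.396) and Aqp9 (0.43), against standard deviations of 1.2 and 1.42. Fos was matched by Ugt1a6a (0.19), Spaca6 (0.224) and Srxn1 (0.258), Jun by Treml2 (0.176), Ticam2 (0.192) and the bZIP gene Creb5 (0.209), and Atf3 by Slamf8 (0.379), Rab11fip4 (0.397) and Tmod1 (0.408). Junb was matched by Aph1c (0.162), Clk4 (0.167) and Atf1 (0.17), Jund by Gatc (0.136), Diaph2 (0.169) and Zfp385a (0.171), and Mafk by Repin1 (0.177), Ercc6 (0.18) and Zbtb21 (0.183). Maff, matched by Gem (0.236), Junb (0.241) and Ciart (0.272), had another member among its 3 closest genes. Over the groups the standard deviation was 0.656 for Fos, 0.754 for Jun, 1.16 for Atf3 and 0.774 for Maff. It was 0.556 for Junb, 0.526 for Jund and 0.508 for Mafk. Small differences are easier to reach for a member that varies little, so they do not rank the members. These matches are descriptions over 10 group means, without a test.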

How the data were processed

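The authors' deposited tables hold raw read counts per Ensembl gene for each of the 30 libraries, prepared with a stranded mRNA kit per the labels' protocols. STAR, featureCounts, DESeq2 and deepTools and the build GRCm38 are named in the submitters' processing notes, without versions. The strand setting is not given in the sources used here. Symbols, positions and exon lengths came from GENCODE M21 (42462 of 43629 IDs matched, and 0.19% of reads fell on unmatched IDs). Promoter sequences came from RefSeq on GRCm38.p6.

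Each experiment was fitted alone in R 4.3.3 with edgeR 4.0.16, using TMM normalization, filterByExpr, the robust quasi-likelihood test and Benjamini-Hochberg adjustment over all genes tested (threshold 0.05), in 17 comparisons. Standard errors are the log2 fold change over the square root of F. The 95% intervals are the log2 fold change ± 1.96 standard errors. With few libraries they are narrower than the quasi-likelihood test itself would give. A count of 3 corresponds to 0.22 to 0.292 CPM in the wild type and 0.108 to 0.403 CPM in the shRNA experiment, which covers counting error only. The fit was tested on simulated counts: for PGE2 over IL-4 in wild type cells (12824 genes), 79% of 100 genes changed 1.5-fold and 91% of 100 changed 2-fold were recovered, beside 12 calls of unchanged genes. Unlike the data, the simulation gave all genes the same median spread and changed few genes, so these rates need not hold for the data. Alternatives were RLE normalization, DESeq2 1.42.0, no low-count filter, only the groups compared, the replicate number as a block, and each library left out in turn. After the data were seen, a block within each hairpin and control shRNA replicate 2 left out of all 3 conditions were added. Pairing was read from the data, since the labels give only shared replicate numbers. Within each hairpin, deviations of same-numbered libraries correlated above 0.1 in every pair of libraries (0.115 to 0.548), in all 6 pairs of groups. Across hairpins the correlations ran from -0.0719 to 0.274, above 0.1 for replicates 1 and 2 and below it for replicate 3. All 3 numbers were thus above 0.1 in 0 of 9 pairs of groups across hairpins, although replicates 1 and 2 deviated together there too. In wild type cells all 3 were above 0.1 in 1 of 6 pairs of groups, IL-4 plus PGE2 with IL-4 plus valinomycin, where the block changed no member call.

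The 10 members and the gene lists were chosen with earlier results of these data known. Genes named from a list were called with an absolute log2 fold change of at least 1, up to 4 per list and comparison by smallest adjusted p, and some items are not reported here. The 3 most alike genes were named per member, after adding 0.5 CPM. No library was left out, and no 2 replicates agreed within sampling noise (chi-square per degree of freedom 1.235 to 20.34, highest in the pairs with control shRNA replicate 2).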

Additional observations from a re-analysis of the deposited data

Results flagged for a closer look

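Etv1 shRNA and control shRNA macrophages differed in how 7 members responded to PGE2 on top of IL-4, by the test of the difference itself in edgeR. That test called 11.6% of all genes. Given as the log2 fold change in Etv1 shRNA cells minus that in control shRNA cells, the difference was -1.88 for Fosb, -1.54 for Fos, -1.09 for Jdp2, -0.53 for Junb, -0.44 for Mafk, -0.35 for Fosl2 and 1.11 for Atf3. The calls of Fosb, Mafk and Fosl2 were each lost in several of the fits that leave out a library. In the response to IL-4, where 4.51% of all genes were called, the difference was -0.996 for Fosl2 and 0.84 for Fos. That Fos call was lost in 11 of the fits that leave out a library. The summed macrophage markers were lower in Etv1 shRNA cells in all 3 conditions, and their part in these differences was not tested.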

How the results depend on the processing

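No member reversed its direction among called values under any alternative. Of the recomputed member values, 2023 kept their side of the threshold, 85 lost it and 42 passed where they had not. The number of members called for IL-4 in Etv1 shRNA cells was 8 with only the 2 groups in the fit, against 5. For the difference in IL-4 response between hairpins it was 1 without the low-count filter, against 2, and 1 to 2 over the fits leaving out a library (2 only without control shRNA IL-4 replicate 2 or Etv1 shRNA unstimulated replicate 2). The number of all genes called for it was 360 to 762 over those fits, against 559, with 361 without control shRNA IL-4 replicate 1 and 360 without replicate 3. For the difference in PGE2 response 4 to 7 members were called over the fits leaving out a library, against 7, with 4 without Etv1 shRNA IL-4 replicate 1 or 3. With the replicate number as a block within each hairpin, 5 members and 1413 genes were called for the difference in IL-4 response, against 2 and 559, and 2563 genes for the difference in PGE2 response, against 1438. With control shRNA replicate 2 left out of all 3 conditions, 1100 genes were called for the difference in IL-4 response. With one replicate block across the experiment, 984 genes were called for the difference in IL-4 response, the Fosb difference in PGE2 response did not pass (adjusted p = 0.0526) and 6 further member calls were gained, of Junb (0.0121) and Jund (0.0191) for IL-4 and Jund (0.0388) for PGE2 in Etv1 shRNA cells, of Jund (0.0221) for PGE2 in control shRNA cells, and of Fos (0.0306) and Fosb (0.0034) for valinomycin over IL-4 in wild type cells, whose numbers did not pair those libraries. The cause of these shifts was not tested. Depth limits Fosb most, with 8 to 19 reads per library in IL-4 treated wild type cells.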
